A study of Bos taurus with 2 samples.

Results

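The phagocyte NADPH oxidase is the membrane enzyme that neutrophils, monocytes and macrophages use to make superoxide during the respiratory burst. The genes CYBA, CYBB, NCF1, NCF4, RAC1 and RAC2, which encode parts of it, were followed probe by probe in the blood of Holstein dairy cattle (Bos taurus). They were chosen by name, as all non-control probes whose gene name, or the gene of whose RefSeq accession, was one of these 6. This gave 11 probes, and for all 11 both routes led to the same gene. The 6 genes stand among 16959 named genes on the array, of which 10339 were above background on both arrays.

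The study set total RNA from 1 whole blood specimen of low feed efficiency against 1 of high feed efficiency, each labelled with Cy3 and read on 1 bovine oligonucleotide array. An animal of low feed efficiency has a high residual feed intake, meaning that it takes in more feed than is predicted for it. Age, sex and treatment are not in the labels, nor is the number of animals behind each specimen. Globin and calgranulin genes, which mark whole blood by its red cells and neutrophils, were bright on both arrays: HBA read 26648 in low-efficiency and 20058 in high-efficiency blood, and S100A12 read 48851 and 34561.

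In resting phagocytes the oxidase is kept apart in pieces. Its catalytic core is a membrane flavocytochrome of gp91phox (CYBB) and p22phox (CYBA), while p47phox (NCF1) and p40phox (NCF4) wait in the cytosol and a Rac GTPase is held by its inhibitor. After a stimulus, p47phox is phosphorylated, the cytosolic proteins move to the membrane, Rac binds GTP, and electrons pass from NADPH through gp91phox to oxygen. Loss of CYBB, CYBA or NCF1 causes chronic granulomatous disease in humans. The 6 genes do not cover every protein of the complex.

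Every difference below is the log2 value of low minus high feed efficiency, after each array's intensities were divided by its 75th percentile (98 in low-efficiency and 81 in high-efficiency blood). With 1 array per group there is no SD, no test and no p-value, and the number of arrays limits the precision. Technical error alone can be gauged: over replicate spots of one probe, the SD of the difference was 0.10 for 12 bright probes and 0.08 for 7 probes whose signal fell within the range of the member probes. A second gauge is the gap between the differences of a gene's 2 brightest probes, whose median was 0.11 and 95th percentile 0.44 across 1689 genes with 2 bright probes.

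None of the 6 oxidase genes was 2-fold apart between the specimens, against 0.938% of all genes in either direction (0.368% higher and 0.571% lower in low feed efficiency). None was 1.5-fold apart either, where 5.82% of all genes were. Their median difference was -0.15, and the median of all 10339 genes was -0.04, so the oxidase genes stood at -0.11 relative to all genes. RAC2 lay lowest with -0.38 and CYBB highest with 0.09. Relative to the median of all genes, 4 of the 6 lay below it and 2 above it.

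All 11 probes were above background on both arrays, at intensities between 240 and 7244 where the cut for background was 10.9, and none had a saturated pixel. Before scaling, 9 probes were brighter on the low efficiency array and 2, both of RAC2, on the high efficiency array. The median difference of all genes was itself 0.24 without scaling. After scaling 10 of the 11 probes had a negative difference, the exception being the brighter CYBB probe. Genes in the members' range of signal then had a median of -0.11 and an upper quartile of 0.04, so most of them were negative too. The share of all probes with each sign was not taken, and the 11 probes stand for 6 genes. The probes' differences ran from -0.38 to 0.09 with a median of -0.14, and none was 2-fold apart, against 1.04% of all probes above background.

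**Figure D1:**
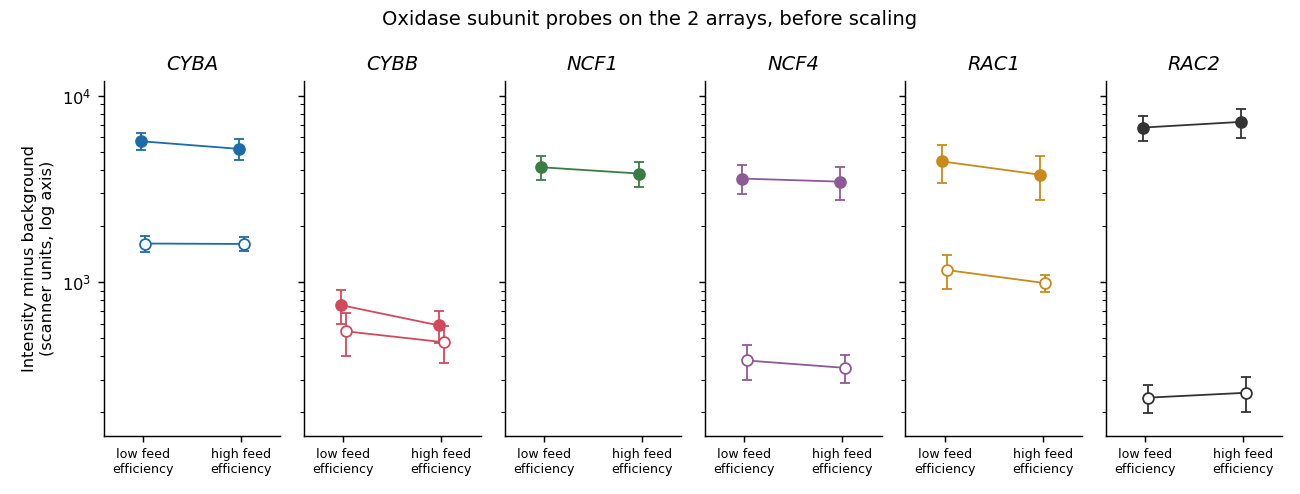
Background-subtracted intensity (scanner units, log axis, before scaling) of each probe of the 6 oxidase genes, with low feed efficiency on the left and high feed efficiency on the right of each panel. Filled points are the brighter probe and open points the dimmer one, and bars are the SD over the pixels of a spot. In each gene the lines are nearly flat, sloping down to the right in 9 probes and up in both RAC2 probes.

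CYBB encodes gp91phox, which carries the heme and flavin groups that pass electrons to oxygen. Its brighter probe (NM_174035) read 753 in low-efficiency and 586 in high-efficiency blood, with a pixel SD of 160 and 113. The other read 545 in low-efficiency and 476 in high-efficiency blood. Both were brighter in low feed efficiency before scaling, and after scaling they fell on either side of 0.

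The CYBB differences were 0.09 and -0.08, a gap of 0.17 that is wider than in 69.5% of genes with 2 bright probes. Averaged over both probes the difference was 0.0037. By its brighter probe CYBB stood 0.13 above the median of all genes, and 32.5% of genes had a difference as high or higher. A further probe carries no gene name and so is not one of the 11, but its description is that of the cytochrome b-245 heavy chain and its transcript cluster is also listed for a CYBB probe. It was found after the values of the other CYBB probes were seen. It read 1272 in low-efficiency and 1078 in high-efficiency blood, which differ by -0.04, a value that lay between those of the 2 CYBB probes.

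CYBA encodes p22phox, the partner that stabilises gp91phox and offers the docking site for p47phox. Its brighter probe (NM_174034) read 5706 in low-efficiency and 5192 in high-efficiency blood. The other read 1612 in low-efficiency and 1603 in high-efficiency blood, nearly the same before scaling. The differences were -0.14 and -0.27, a gap of 0.13. On the brighter probe CYBA stood at -0.10 relative to the median of all genes, but at 0.04 in the authors' deposited table, where the probe had log2 values of 12.4 in low-efficiency and 12.3 in high-efficiency blood. On the brighter probes CYBA minus CYBB was -0.23 on the log2 scale, and it ran from -0.23 to -0.13 over the 16 settings compared. The probes of each gene were themselves apart by 0.13 for CYBA and 0.17 for CYBB, and the dimmer CYBB probe at -0.08 lay close to the brighter CYBA probe at -0.14.

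NCF1 encodes p47phox, the organiser that carries the phosphorylation switch of the complex. A single probe (NM_174119) read it, at 4136 in low-efficiency and 3825 in high-efficiency blood, with a pixel SD of 606 and 586. Its difference was -0.16, or -0.12 relative to the median of all genes. The spot was not flagged good by the scanner software on either array, so NCF1 had no value when only good spots were used.

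NCF4 encodes p40phox, which binds a phosphoinositide of the phagosome membrane and sustains the burst there. Its brighter probe (NM_001045983) read 3598 in low-efficiency and 3463 in high-efficiency blood. The dimmer one read 380 in low-efficiency and 347 in high-efficiency blood. Both probes lay below the median of all genes after scaling, with differences of -0.22 and -0.14 and a gap of 0.08 between them. The spots around the brighter NCF4 probe on the array had a median difference of -0.27, so this probe stood at 0.06 relative to its neighbours and at -0.18 relative to the median of all genes. The spots around the dimmer probe had 0.04, and it stood at -0.18 relative to them. NCF1 minus NCF4 was 0.06 on the log2 scale, less than the replicate-spot SD.

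**Figure D2:**
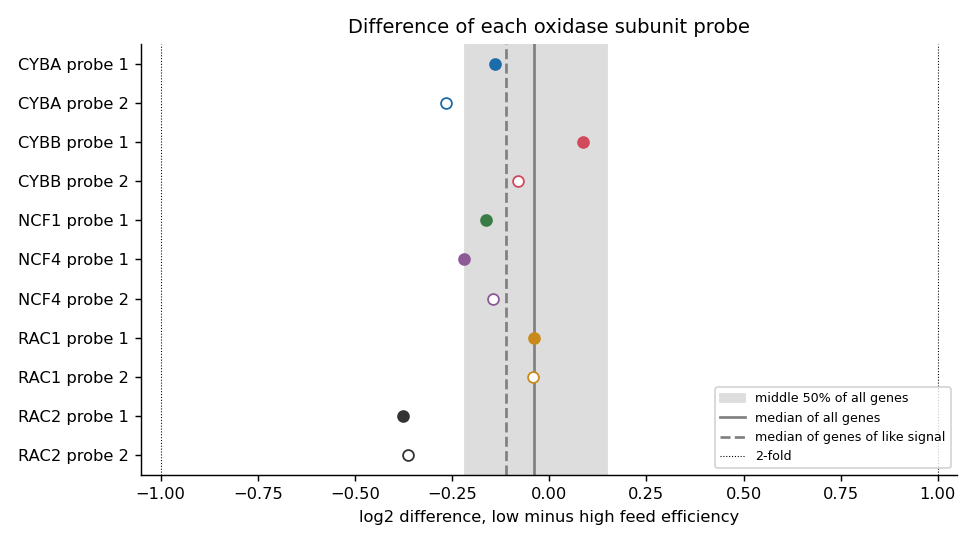
Log2 difference, low minus high efficiency, for each of the 11 probes (filled: brighter probe of a gene, open: dimmer). The grey band spans the middle 50% of all genes, the solid line their median of -0.04 and the dashed line the median of -0.11 of genes of like signal. The 2 RAC2 probes lie left of the band at -0.38 and -0.36, the dimmer CYBA probe at -0.27 and the brighter NCF4 probe at -0.22 lie at or just outside its left edge, and no point reaches the dotted 2-fold lines.

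RAC2 is the Rac GTPase of blood cells and the form that serves the neutrophil oxidase. Its brighter probe (NM_175792) read 6752 in low-efficiency and 7244 in high-efficiency blood, with a pixel SD of 1017 and 1299. The dimmer probe read 240 in low-efficiency and 255 in high-efficiency blood, with a pixel SD of 41 and 54. These were the 2 probes that read dimmer in low feed efficiency before any scaling, and on each of them the 2 arrays differed by less than the pixel SD of a spot. The same held before scaling for the NCF1 probe, both probes of CYBA and NCF4, the brighter RAC1 probe and the dimmer CYBB probe. The SD over the pixels of a spot does not measure the error between arrays.

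After scaling, the RAC2 differences were -0.38 and -0.36, a 1.30-fold and a 1.29-fold lower level in low feed efficiency. The gap between the 2 probes was 0.014 at this scaling, and 8.05% of genes with 2 bright probes had a narrower one. The probes lay farther apart with quantile normalization, at -0.24 and -0.34, and with loess, at -0.25 and -0.34. RAC2 stood at -0.34 relative to the median of all genes, 3.37 times the replicate-spot SD of bright probes, and 11.1% of all genes had a difference as low or lower. It was the single member past 1.2-fold, a size that 35.1% of all genes reached. The median difference of neighbouring spots was -0.05 around the brighter RAC2 probe and -0.17 around the dimmer one, and relative to these the probes stood at -0.33 and -0.20. The RAC2 difference took values from -0.39 to -0.02 over the settings, with the smallest size under spike-in scaling.

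RAC1 is the Rac GTPase found in nearly all cell types and the main form in human monocytes. Its brighter probe (NM_174163) read 4444 in low-efficiency and 3771 in high-efficiency blood, with a pixel SD of 1029 and 1006. The other probe read 1161 in low-efficiency and 988 in high-efficiency blood. Both differences were -0.04, with a gap of 0.0041 between them, and 1.95% of genes with 2 bright probes had a narrower gap. With normexp the RAC1 probes lay farther apart, at 0.03 and -0.02. RAC1 stood at the median of all genes, 0.0012 above it.

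RAC2 minus RAC1 was -0.34, a 1.26-fold lower RAC2 to RAC1 ratio in low feed efficiency. An array's scaling cancels in this ratio, which ran from -0.34 to -0.29 over the 16 settings. Settings that only rescale an array, and filters that keep the same brighter probes, could not change it. Among settings that could, it was -0.29 with normexp, -0.32 with quantile normalization and -0.33 with loess. The 2 gaps between probes of one Rac gene, 0.014 for RAC2 and 0.0041 for RAC1, were smaller, but they widened under some other settings. Across genes, however, the 95th percentile of the gap between 2 probes of one gene was 0.44, which is larger than the Rac ratio in size. The third Rac gene, RAC3, was near background: 1 of its probes read 3 in low-efficiency and 5 in high-efficiency blood, and the other read 21 in low-efficiency and 9 in high-efficiency blood, at least 1.58-fold higher in low feed efficiency since of these 2 values the first alone is above the cut.

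The oxidase genes were also set against genes of like signal. Their brightest probes had a mean signal between 664 and 6994, and the 1837 genes in that range had a median difference of -0.11, below the -0.04 of all genes. Against these genes of like signal the median of the 6 members was -0.04. RAC2 stood at -0.26 relative to them, and 12.6% of them had a difference as low or lower. CYBB was above their median, with 19.3% of them as high or higher.

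**Figure D3:**
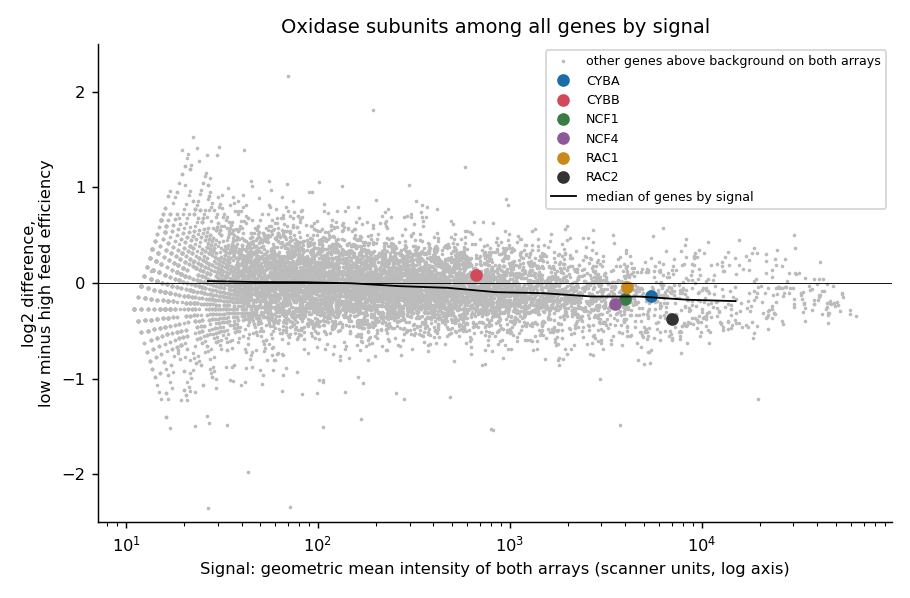
Log2 difference, low minus high efficiency, against mean signal (geometric mean intensity of both arrays, log axis) for all genes above background on both arrays (grey; 7 genes lie beyond the axis) and the 6 oxidase genes (coloured). The black line joins medians of genes by signal and slopes down toward bright genes; CYBA, NCF1, NCF4 and RAC1 lie near it, CYBB above and RAC2 below.

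How the arrays were put on one scale set the sign of most members. With 7 spike-in controls as the scale, the median of all genes moved up by 0.36, and 5 of the 6 members had positive differences, from 0.14 for NCF4 to 0.45 for CYBB, while RAC2 had -0.02. Without scaling the same 5 were positive and RAC2 had -0.10. Relative to the median of all genes, sizes shrank under some settings. NCF4 came to -0.02 and NCF1 to -0.03 with normexp, and CYBB to 0.04 in the mean over probes. RAC2 and NCF4 lay below that median under all 16 settings, NCF1 under all 15 that gave it a value, and CYBB above it under all 16. CYBA lay below it under 13 and above it under 3, and RAC1 below it under 4 and above it under 12. RAC2 was the lowest and CYBB the highest of the members under each of the 16 settings. Settings that only rescale an array cannot change this order or a place relative to the median of all genes. Filters that keep the same brighter probes cannot change the order either, and they move a place only through the median of all genes. The agreement over the 16 settings therefore rests on fewer of them.

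**Figure D4:**
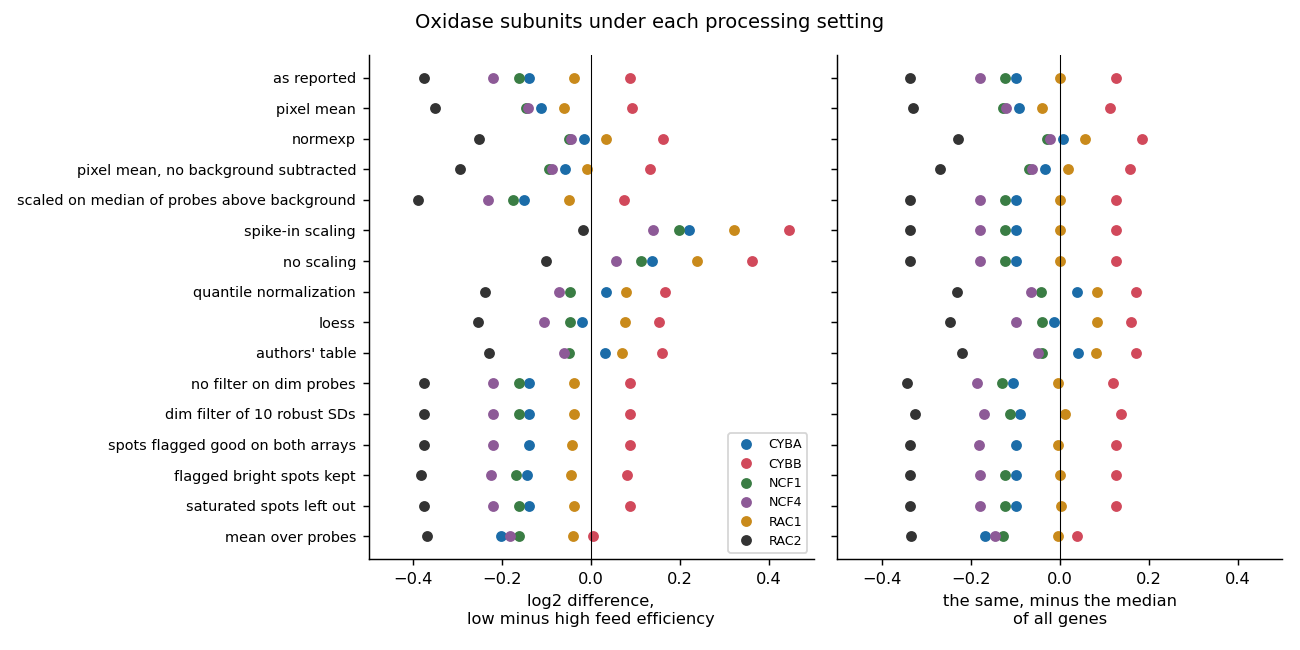
Log2 difference, low minus high efficiency, for the 6 oxidase genes under each of the 16 processing settings (left) and the same less the median of all genes under that setting (right). RAC2 is the leftmost and CYBB the rightmost point in every row; the left panel shifts to the right with spike-in scaling and with no scaling, and the right panel does not.

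The genes that act around the oxidase were taken from 7 pathway lists. Of 14 measured regulators and assembly partners, 9 lay above and 5 below the median of all genes, their median stood 0.04 above it, and none was 2-fold apart. VAV3, an exchange factor that loads Rac with GTP, was farthest from the median with a difference of 0.80 (82 in low-efficiency and 39 in high-efficiency blood; 0.38 with normexp background correction). A few others are named for their role, after their values were seen. CYBC1, the chaperone that gp91phox and p22phox need to be made, read 2139 in low-efficiency and 1948 in high-efficiency blood, a difference of -0.14 over 4 probes between -0.32 and 0.06. ARHGDIB, the inhibitor that holds Rac in the cytosol of blood cells, had -0.11 and VAV1, the exchange factor of blood cells, -0.32. Spike-in scaling raises each difference alike, by 0.36, so that negative ones of smaller size turn positive there, as with ARHGDIB at 0.25 and VAV1 at 0.04. This holds for all genes named below.

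Of 17 measured kinases and lipid enzymes that switch the oxidase on, 10 lay above and 7 below the median of all genes, and the list median stood 0.13 above it, with none 2-fold apart. Their summed scaled intensity went the other way, at 160 in low-efficiency and 179 in high-efficiency blood. MAPK3, which encodes the kinase ERK1, was farthest from the median with -0.46 (6812 in low-efficiency and 7760 in high-efficiency blood), over 3 probes between -0.46 and 0.11. It was also the brightest gene of the list and weighs most in these sums. Without MAPK3 the sum of the rest was higher in low-efficiency blood, the same direction as the list median. Sums given below likewise weigh bright genes most. PRKCB and PRKCD, named for their role as the protein kinase C forms that phosphorylate p47phox, had 0.20 and 0.11, though the 3 PRKCD probes ran from -0.18 to 0.69. PIK3CG, the phosphoinositide 3-kinase gene downstream of chemoattractant receptors, had 0.30.

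Receptors that trigger the burst stood 0.03 above the median of all genes, with 6 of 11 measured members above and 5 below, and 4 of 15 alternatives put their median below it. TLR4, the endotoxin receptor, was farthest from it with -0.36, but its probes ran from -0.48 to 0.53. ITGB2, the common chain of the leukocyte integrins, read 10775 in low-efficiency and 10995 in high-efficiency blood, a difference of -0.30. Transcription factors of oxidase genes in myeloid cells had a median 0.0021 above that of all genes, with 8 of 14 above and 6 below, and 2 of 15 alternatives put it below. RUNX1 was farthest with 0.73, read near background at 24 in low-efficiency and 12 in high-efficiency blood (0.06 with normexp). SPI1, the factor PU.1 that drives CYBB, NCF1 and NCF4 in myeloid cells, had -0.12 at 12256 in low-efficiency and 10990 in high-efficiency blood, and was positive with normexp (0.015), loess (0.013) and spike-in scaling (0.24).

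Enzymes that supply NADPH stood at -0.07 relative to the median of all genes, with 3 of 8 measured members above and 5 below. RPE was farthest from it with 0.28 at 22 in low-efficiency and 15 in high-efficiency blood, and -0.06 with normexp. Genes that use superoxide, or balance the charge it moves, stood at -0.03, with 3 of 10 above and 7 below. SOD2, the mitochondrial superoxide dismutase, had 0.56 at 1798 in low-efficiency and 1006 in high-efficiency blood, over probes between 0.54 and 0.56. HVCN1, the proton channel that lets the burst go on, had 0.09, with its other probe at -0.19.

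Other members of the oxidase family were scarcely read in blood. Of 10 genes on the array 3 were above background on both arrays, 1 of them above and 2 below the median of all genes, and their median was -0.15 relative to it (-0.02 with good spots). NOX1, the oxidase of colon, was farthest with -0.50 at 12 in low-efficiency and 14 in high-efficiency blood. No measured member of the 7 pathway lists was 2-fold apart at this scaling, against 0.938% of all genes, but VAV3 at 1.16 and RUNX1 at 1.08 were with spike-in scaling.

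**Figure D5:**
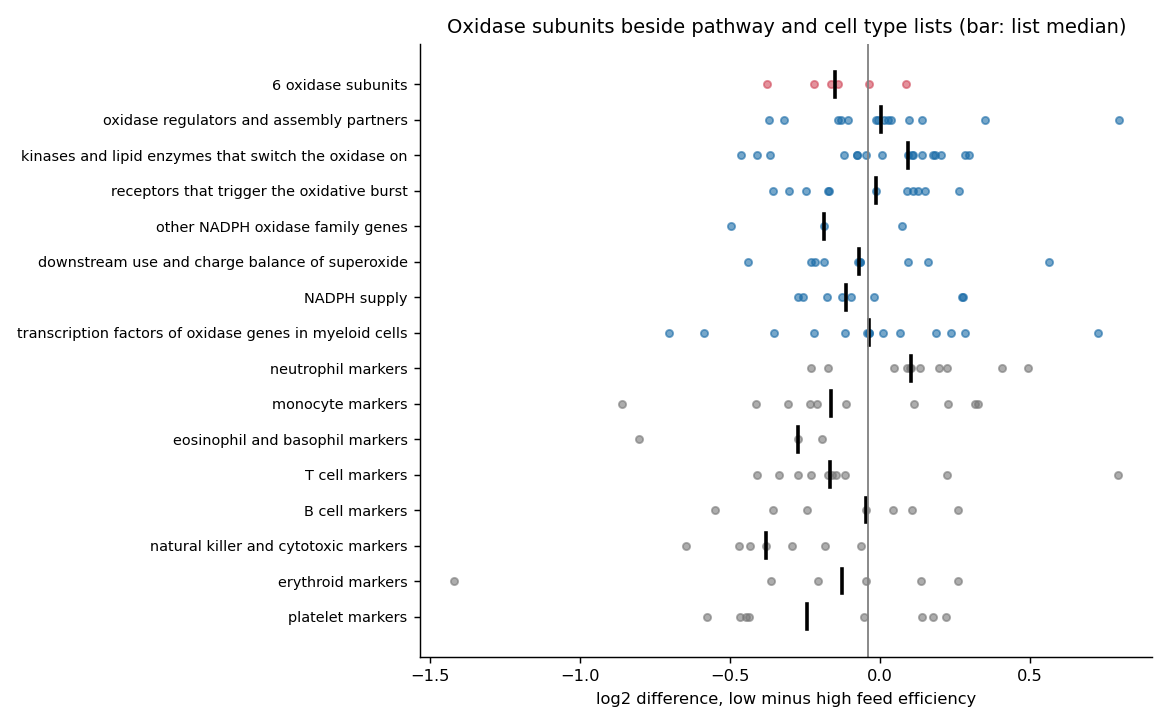
Log2 difference, low minus high efficiency, for the 6 oxidase genes (top row), the genes of 7 pathway lists (blue) and of 8 cell type marker lists (grey); each point is a gene, black bars are list medians and the grey line is the median of all genes. The oxidase genes span -0.38 to 0.09, with a median of -0.15; neutrophil markers lie mostly right of the line and natural killer markers left of it.

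In whole blood, fewer cells of a type and less RNA per cell cannot be told apart, and which cells gave the signal of the oxidase genes was not measured. Neutrophil markers lay higher: 9 of 11 measured stood above the median of all genes and 2 below, with a list median 0.14 above it (0.26 with normexp). Their summed scaled intensity was 904 in low-efficiency and 804 in high-efficiency blood. OLFM4 was farthest with 0.49 (80 in low-efficiency and 47 in high-efficiency blood), and the brightest, S100A12 and S100A8, had 0.22 and 0.10. Of the 15 markers listed, CAMP was on the array but not above background on both arrays. Beside these markers the oxidase genes stood at -0.11 relative to all genes, but at -0.04 relative to genes of like signal. Relative to all genes they came to 0.0 in the authors' table, -0.0016 with quantile normalization and -0.0087 with normexp. The part of neutrophil numbers in these values was not tested.

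Monocyte markers lay lower, with 4 of 10 above and 6 below the median of all genes and a list median of -0.12 relative to it. Their summed scaled intensity was 317 in low-efficiency and 362 in high-efficiency blood, and all 10 were above background on both arrays. FCN1 weighs most in these sums, at 14978 in low-efficiency and 16485 in high-efficiency blood before scaling. Without FCN1 the sum of the rest was slightly higher in low-efficiency blood, and without LYZ as well it was lower again. The direction of the sums thus depends on these bright genes. CSF1R, the macrophage growth factor receptor, was farthest with -0.86 over probes between -0.86 and -0.52. The brightest, FCN1 and LYZ, had -0.41 and 0.32, with their other probes at -0.13 and -0.05. Eosinophil and basophil markers, of which 3 of 10 were measured, all lay below, with a median of -0.24 relative to all genes (-0.51 with no filter on dim probes). CCR3, the eotaxin receptor and the brightest of them, had -0.80 (151 in low-efficiency and 218 in high-efficiency blood), and GATA2 had -0.27. Their summed scaled intensity was 3.47 in low-efficiency and 4.99 in high-efficiency blood.

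RAC2 is also made by lymphocytes. Natural killer and cytotoxic markers had all 7 measured members below the median of all genes, with a list median of -0.34 relative to it. This median was -0.16 with normexp and -0.21 without background subtraction, and RAC2 relative to all genes ran from -0.34 to -0.22 over the settings. NKG7 was farthest with -0.65, and the brightest, CCL5 and GZMB, had -0.43 and -0.18. Their summed scaled intensity was 203 in low-efficiency and 263 in high-efficiency blood. T cell markers had 2 of 10 above and 8 below, a median of -0.13 relative to all genes, and sums of 264 in low-efficiency and 318 in high-efficiency blood. IL7R was farthest with 0.79 on a single dim probe, at 44 in low-efficiency and 21 in high-efficiency blood (0.26 with normexp). The brightest, CD4 and CD247, had -0.41 and -0.17, with the other CD4 probe at 0.17. B cell markers had 3 of 7 above and 4 below, and a median of -0.0089 that 7 of 15 alternatives turned positive. Their sums were 95.4 in low-efficiency and 100.4 in high-efficiency blood. PAX5 had -0.55 and the brightest, TNFRSF13C and CD79A, had -0.05 and 0.11, with their other probes at 0.01 and -0.33. The part of these cells in the RAC2 difference was not tested.

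Whole blood also holds red cells and platelets. The median of erythroid markers was -0.09 from that of all genes (-0.24 with no filter on dim probes), with 2 of 6 above and sums of 342 in low-efficiency and 309 in high-efficiency blood. ALAS2, which starts heme synthesis in red cell precursors, had -1.42. By the probe that stood for each gene, it was the single marker in the 8 cell type lists that was 2-fold apart at this scaling. With normexp it had -0.87, so that no marker was, and with spike-in scaling IL7R was also past 2-fold, at 1.15. The globin genes HBA and HBB had 0.13 and 0.26. For platelet markers the median was -0.21 from that of all genes, but -0.0055 with the stricter filter on dim probes, -0.016 with good spots, -0.04 with normexp and -0.09 without background subtraction. Of the platelet markers 3 of 8 lay above, with sums of 294 in low-efficiency and 286 in high-efficiency blood. MYL9 had -0.58, with its other probe at -1.11, past 2-fold. The brightest, GNG11 and PF4, had 0.22 and -0.05, and the 3 GNG11 probes ran from -0.04 to 0.22.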

How the data were processed

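The deposited scanner files give intensity per spot at 532 nm, written by GenePix Pro 6.1.0.4 with no normalization, per the file headers; Agilent Feature Extraction is listed in the submitters' processing notes. The intensity used was the pixel median less the mean of the negative controls in the block. The same deposited files hold, per spot, a percent of saturation and a score for its flag. Log2 values from the authors' deposited table were used as an alternative after a move by 1 row, which raised Spearman's rank correlation with the scanner values to 1.00 on both arrays from 0.077 in low and 0.072 in high feed efficiency. Its normalization is not stated by labels or headers.

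Each array had 45220 spots, of which 43803 were probe spots of 43653 probes. Bright spots flagged as not found were left out (408 in low-efficiency and 283 in high-efficiency blood), which kept 43096 probes. A probe was above background past the negative controls' median by 3 robust SDs, 10.9 on both arrays. This held for 24329 probes in low-efficiency and 22718 in high-efficiency blood. Each array was scaled to its 75th percentile before log2 was taken, and the probe of highest mean signal above background in both specimens stood for a gene.

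Probes were named by RefSeq accession, then symbol, through a gene table of the assembly ARS-UCD2.0, used for names and gene order only. Another gene list is not reported here. The members and lists were chosen with earlier results of these data known. Named in each list were members 2-fold apart (up to 3) or else the one farthest from the median of all genes, and in marker lists the 2 brightest; other genes are named for their role after their values were seen. With 2 arrays no likeness of pattern between genes was measured. The steps were tested on simulated data. Tools were Python 3.11.15, pandas 2.3.3, statsmodels 0.14.6 (lowess), R 4.3.3 and limma 3.58.1 (normexp, offset 50). The 15 alternatives to the main setting, which make 16 settings in all, covered background correction, scaling, normalization, filters on dim, flagged and saturated spots, the authors' table and the mean over probes, besides fold thresholds of 1.5 and 4.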

Additional observations from a re-analysis of the deposited data

How the results depend on the processing

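No paired analysis was possible because each group has 1 array. The count of 0 members 2-fold apart was the same under all 15 alternatives and at 1.5-fold, and at 4-fold it could not differ. As 0.938% of all genes and 0.218% of genes of like signal were 2-fold apart, a count of 0 among 6 genes tells little. The members' median of -0.15 moved past the replicate-spot SD under 6: it was -0.01 in the authors' table, -0.034 with loess, -0.031 with normexp, -0.0073 with quantile normalization, 0.12 without scaling and 0.21 with spike-in scaling. Relative to all genes, the median of -0.11 moved to 0.0 in the authors' table, -0.0087 with normexp and -0.0016 with quantile normalization. Less the median of neighbouring spots, an alternative chosen after seeing the data, it was -0.08. Spike-in scaling and no scaling shift all genes alike by construction; the cause of the other moves was not tested. The count of 97 genes 2-fold apart was 602 at 1.5-fold, 10 at 4-fold, 1739 with no filter on dim probes, 31 with the stricter filter, 24 with good spots, 58 with normexp, 161 without scaling and 234 with spike-in scaling, and the share of these that were higher was 39.2% against 91.5% with spike-in scaling and 87.6% without scaling. All 11 member probes lay well above background, so signal did not limit them, while RAC3 and most other oxidase family genes were limited by it.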

Other observations

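In the gene order of ARS-UCD2.0, NCF4 and RAC2 lie on the same chromosome with 11 protein-coding genes between them, 5 of which were above background on both arrays. C1QTNF6, which lies near RAC2, read 518 in low-efficiency and 1234 in high-efficiency blood on its single probe, a difference of -1.53 that stayed between -1.55 and -1.17 over 16 settings. The other genes between them were closer to 0. TST, the sulfur transferase rhodanese, had -0.27 with its other probe at 0.07, and MPST, a related sulfur transferase, had -0.13 at 2051 in low-efficiency and 1849 in high-efficiency blood. KCTD17 had -0.31 and IL2RB, an interleukin receptor chain of lymphocytes, -0.33, both read near background, KCTD17 at 36 in low-efficiency and 37 in high-efficiency blood and IL2RB at 26 in low-efficiency and 27 in high-efficiency blood. Of these 5, C1QTNF6 alone was negative under every setting that gave a value, and the other 4 reached positive values, up to 0.23 for MPST.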
